A study of Mus musculus with 15 samples.

Results

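EGFP-positive microglia of Igf1-Egfp transgenic mice on day 6 after stroke were compared with microglia of sham-operated wild-type mice, across all genes of a deposited table of read counts. The comparison takes 2 libraries of 15 in the series, 1 in each group, chosen by the library names in the sample labels. The EGFP-positive library came from male Igf1-Egfp mice aged 8 to 24 weeks whose middle cerebral artery was closed for 60 minutes by a filament and then reopened. The sham library came from male wild-type C57BL/6J mice of the same age range that had the operation with no closure of the artery. In both groups forebrain cells were sorted by flow cytometry on intermediate CD45 and CD11b staining, and the Igf1-Egfp cells were also split by EGFP. An EGFP-negative library from Igf1-Egfp mice on day 6 and a wild-type library on day 6, which was not split by EGFP, are given beside them. Transgene, stroke, time and the EGFP gate all differ between the EGFP-positive and the sham library, so their shares in a difference cannot be told apart. The CD45 antibody carried FITC, a green dye like EGFP. How the 2 green signals were separated, how the transgene was built and how many mice entered a library are not given in the sources used here.

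Microglia are the resident macrophages of the brain. In the healthy brain they express a set of homeostatic genes such as P2ry12, Tmem119 and Sall1, and in injury, demyelination and neurodegeneration a part of them takes on a phagocytic, lipid-handling state, often called disease-associated, with Apoe, Lpl, Spp1 and Gpnmb. Igf1 encodes insulin-like growth factor 1, a secreted ligand of the receptor Igf1r that acts on the survival and growth of neurons, glia and their precursors.

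The EGFP-positive library held 29.6 M counts (M, 1000000 counts) and the sham library 52.6 M, in a table whose 7 libraries ran from 16.8 to 52.6 M. A count above 0 was listed for 13331 genes in EGFP-positive and for 16009 genes in sham. Thinning the sham library to the depth of the EGFP-positive one left 15839 genes with a count. Rn45s, the precursor of ribosomal RNA, took 16.6% of the counts in EGFP-positive and 8.71% in sham, and the 10 most abundant genes took 25.3% in EGFP-positive and 15.4% in sham. Among 6295 genes with at least 20 CPM (counts per M counts) in sham, 4 were listed with 0 counts in EGFP-positive. Genes that every cell uses were also listed at 0 there, namely the ribosomal protein genes Rpl30 and Rps27, the proton pump gene Atp6v0c and the glycolysis gene Eno1, against 2 (Rpl30), 219 (Rps27), 18 (Atp6v0c) and 0 (Eno1) counts in sham, so a 0 is given only as listed. Levels below are CPM after scaling by the trimmed mean of M-values (TMM), which compares a gene between libraries but not different genes with each other, since CPM is not per gene length. A log2 ratio is log2(CPM + 1) in EGFP-positive minus log2(CPM + 1) in sham, and it understates the change of low genes. With 1 library in each group there is no replicate check and no p-value. Intervals of a fold are 95% Clopper-Pearson intervals on halved counts, because 90.9% of the counts from 1 to 20 in EGFP-positive and 76.5% in sham were even. These intervals cover counting error only.

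Of 7254 genes with at least 20 CPM in 1 of the 2 libraries, 473 were higher in EGFP-positive than in sham (6.52%) and 279 were lower (3.85%), by a size rule of an absolute log2 ratio of at least 2. Together they were 10.4% of these genes. Counts of called members of a list are to be read beside these shares, and only members with at least 20 CPM could be called. A gene below 20 CPM in sham could be called only as higher, which favors calls as higher in lists that are low in sham. The median ratio was 3.17 among the higher genes, -2.56 among the lower genes and 0.04 over all 7254. Scaling by total counts alone gave 397 higher and 373 lower genes, so that 51.6% of the called genes were higher rather than 62.9%, and it shifted the median ratio by -0.24. The ratios given here are therefore relative to the bulk of the genes. Of 10627 genes with at least 5 CPM in 1 of the 2 libraries, 50.4% had a ratio of 0 or above. In bulk libraries like these, fewer cells of a type and less RNA per cell cannot be told apart.

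**Figure D1:**
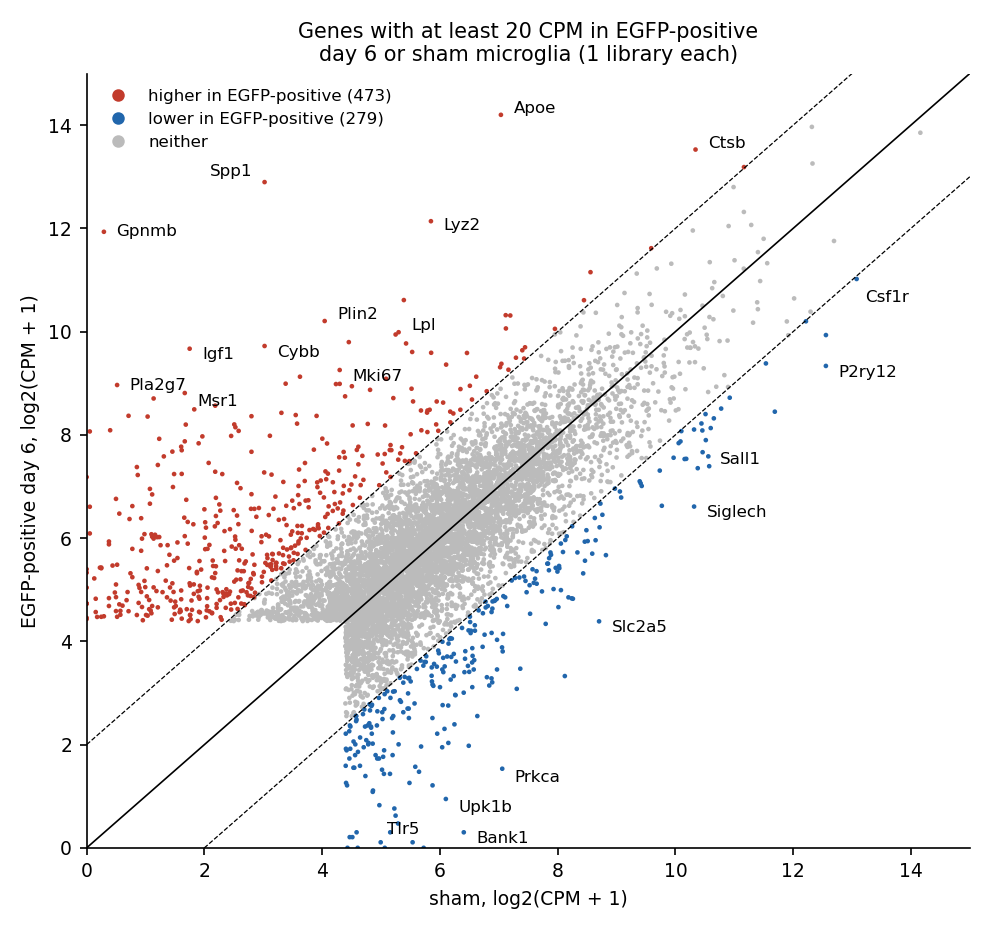
Level of each gene in the EGFP-positive day 6 library (vertical axis) against the sham library (horizontal axis), both as log2(CPM + 1), 1 library each, for genes with at least 20 CPM in 1 of them. Red and blue points are the 473 higher and 279 lower genes, the solid line marks equal levels and the dashed lines a log2 ratio of 2 either way. Gpnmb and Spp1 lie near the left edge at high EGFP-positive levels, P2ry12 and Slc2a5 lie below the lower dashed line, and Rn45s lies beyond both axes.

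Replicate libraries give a scale for these ratios. On day 6 there were 3 replicate libraries of Yy1flox/flox mice, which carry floxed alleles and no Cre, in a table that was made and scaled separately. The same size rule was passed by 8 of 7268 genes (0.11%) between replicates 1 and 2, by 19 of 7323 (0.259%) between 1 and 3 and by 6 of 7296 (0.0822%) between 2 and 3. The SD of log2(CPM + 1) over these 3 libraries had a median of 0.23 and a 95th percentile of 0.61 over the 7254 genes. Of the 752 called genes, 691 had a ratio of more than 4 such SDs. This count follows largely from the size rule, since called genes have an absolute ratio of at least 2 and most SDs were small. It is not support for the calls. This spread says how libraries of 1 day and genotype differed, and it does not replace replicates of the EGFP-positive and sham groups.

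**Figure D2:**
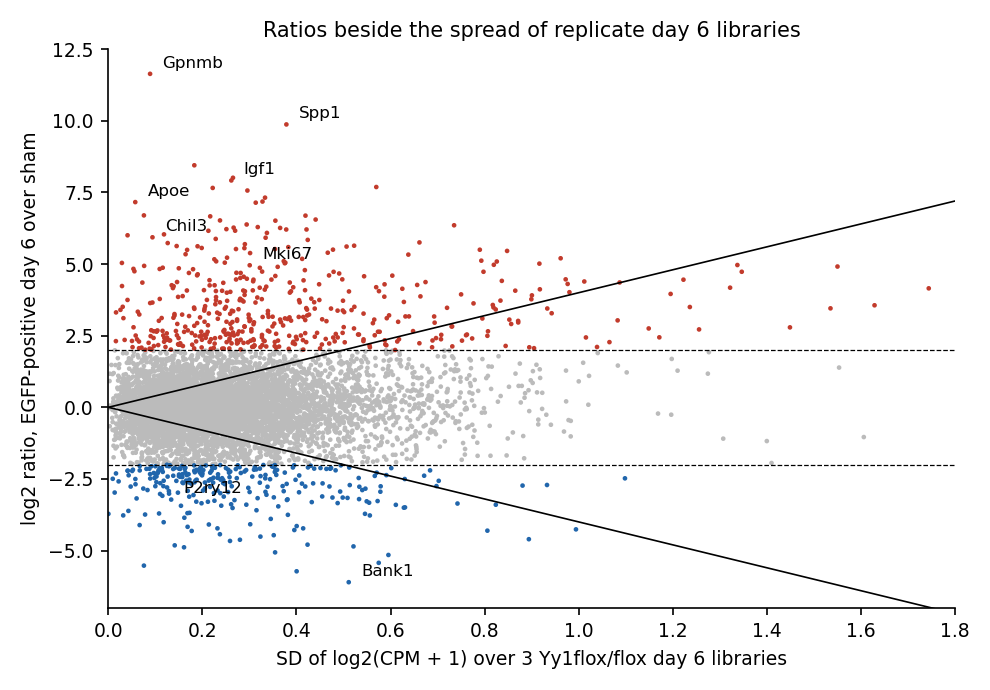
Log2 ratio of EGFP-positive day 6 over sham (vertical axis) against the SD of log2(CPM + 1) over 3 Yy1flox/flox day 6 libraries (horizontal axis), 1 point a gene. Dashed lines mark a log2 ratio of 2 either way and solid lines a ratio of 4 SDs. Of the 752 called genes, in red and blue, 691 lie outside the solid lines, which follows largely from the size rule.

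Markers of other cells that the gate could hold were also unequal. The 13 marker genes of monocytes and their macrophages summed to 2804 CPM in EGFP-positive, 5799 CPM in EGFP-negative, 1565 CPM in wild-type day 6 and 104 CPM in sham. All 11 of them with at least 5 CPM had a ratio above 0 and 5 were higher, namely Chil3 (log2 ratio 5.94), Arg1 (5.73), Thbs1 (5.22), Fn1 (4.08) and Ccr2 (2.94). Chil3, which encodes a chitinase-like protein, had 228 CPM in EGFP-positive, 1751 CPM in EGFP-negative, 39.7 CPM in wild-type day 6 and 2.74 CPM in sham. Arg1, the arginase gene, stood at 114 CPM in EGFP-positive against 8.86 CPM in EGFP-negative, 0.94 CPM in wild-type day 6 and 1.16 CPM in sham. Ccr2, the receptor that draws monocytes out of the marrow, had 64.5 CPM in EGFP-positive, 698 CPM in EGFP-negative, 14.2 CPM in wild-type day 6 and 7.55 CPM in sham. EGFP-positive thus held more Arg1 and less Chil3 and Ccr2 RNA than EGFP-negative cells of the same genotype and day, and both libraries held more of the 3 than sham. Chil3, Arg1 and Ccr2 reached the minimum of 20 CPM through EGFP-positive and not through sham, which favors a call as higher.

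Border-associated macrophages line the meninges and vessels. Their 10 markers summed to 3089 CPM in EGFP-positive, 836 CPM in EGFP-negative, 950 CPM in wild-type day 6 and 850 CPM in sham. Stab1, a scavenger receptor gene, made up most of the sum in EGFP-positive (2392 CPM), wild-type day 6 (874 CPM) and sham (822 CPM). In EGFP-negative it had 364 CPM, below F13a1. Among the 10 markers 4 were higher, which were F13a1 (ratio 7.57), Ms4a7 (7.18), Pf4 (4.73) and Folr2 (3.21). F13a1 and Ms4a7 reached the minimum of 20 CPM through EGFP-positive and not through sham, which favors a call as higher. Mrc1, the mannose receptor gene of these cells, stood at 60.2 CPM in EGFP-positive against 24.5 CPM in sham (1.26).

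The 12 neutrophil markers in the table summed to 444 CPM in EGFP-positive, 12636 CPM in EGFP-negative, 896 CPM in wild-type day 6 and 713 CPM in sham, and 2 of them were higher, Mmp8 (4.79) and S100a8 (2.04). S100a8, which encodes a calcium-binding protein of neutrophils, had 35.2 CPM in EGFP-positive, 3106 CPM in EGFP-negative and 7.80 CPM in sham, and its ratio was 1.84 with scaling by total counts. Retnlg and Hdc were listed at 0 counts in EGFP-positive, against 89 (Retnlg) and 17 (Hdc) counts in sham. Csf3r, the receptor gene for granulocyte colony-stimulating factor, made up most of the sum in both libraries, with 284 CPM in EGFP-positive against 654 CPM in sham. Without Csf3r the other 11 markers summed to 160 CPM in EGFP-positive, 12222 CPM in EGFP-negative, 434 CPM in wild-type day 6 and 59 CPM in sham, so the order of EGFP-positive and sham turned. The EGFP-negative library was the one rich in neutrophil RNA with and without Csf3r.

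Markers of the other cell types were low or not higher. Endothelial and mural markers summed to 470 CPM in EGFP-positive, 620 CPM in EGFP-negative, 3391 CPM in wild-type day 6 and 283 CPM in sham, with 0 of 13 past the size rule. The 10 dendritic cell markers summed to 983 CPM in EGFP-positive and 6044 CPM in sham, almost all from Cst3, a cystatin gene that microglia express as well (977 CPM in EGFP-positive against 6025 CPM in sham), and 6 of them, among them Flt3 and Xcr1, were listed at 0 in EGFP-positive, 1 of the 6 also in sham. Lymphocyte markers summed to 25.9 CPM in EGFP-positive against 10.8 CPM in sham, with 9 of 13 listed at 0 counts in EGFP-positive, 4 of the 9 also in sham. Fibroblast markers summed to 71.4 CPM in EGFP-positive and 22.4 CPM in sham (1 of 7 higher, Col1a2). Astrocyte markers summed to 75.3 CPM in EGFP-positive and 162 CPM in sham, and neuronal markers to 20.3 CPM in EGFP-positive and 5.81 CPM in sham, with 0 called in either list. Oligodendrocyte markers summed to 120 CPM in EGFP-positive and 56.5 CPM in sham, and red cell markers to 0.08 CPM in EGFP-positive and 1.48 CPM in sham. The 12 markers of myeloid cells and microglia summed to 10906 CPM in EGFP-positive, 12612 CPM in EGFP-negative, 18695 CPM in wild-type day 6 and 34141 CPM in sham, and all of them had at least 20 CPM in 1 of the 2 libraries compared. Csf1r, the receptor for colony-stimulating factor 1, stood at 2076 CPM in EGFP-positive. The part of monocytes, macrophages of the brain's borders or neutrophils in the results that follow was not tested. Without the markers of other white blood cells the counts of called genes were 462 higher and 278 lower, a setting chosen after the data were seen.

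**Figure D3:**
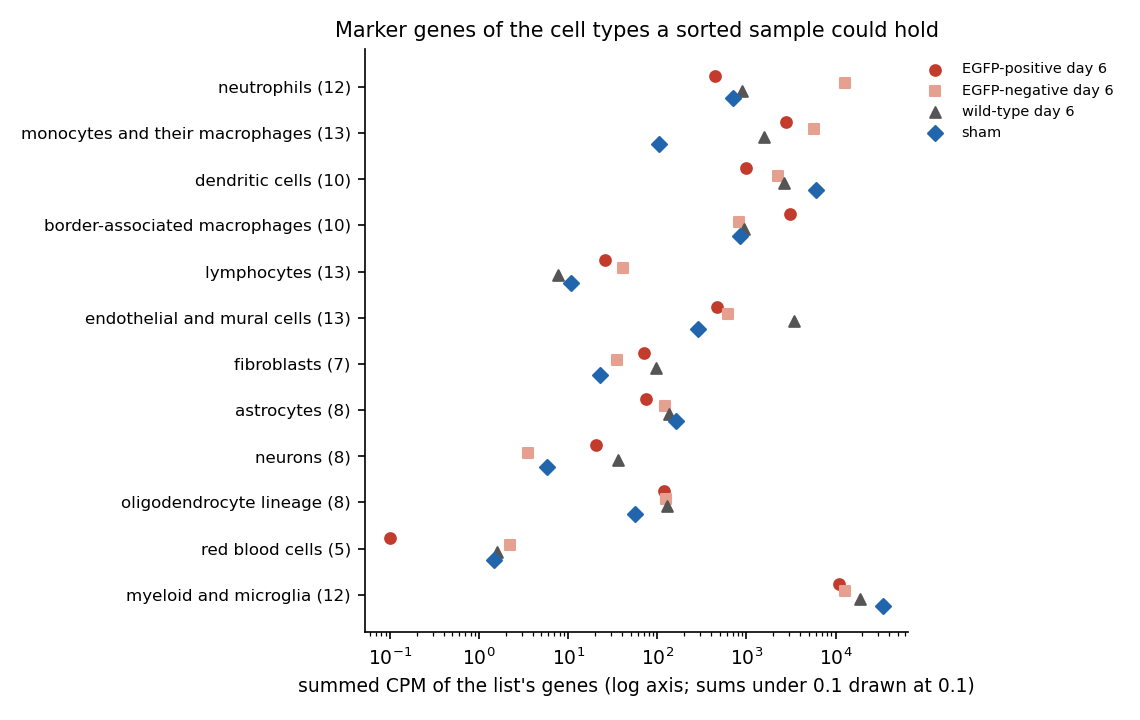
Summed CPM of the marker genes of each cell type (horizontal log axis, number of genes after each name), with 1 point each for the EGFP-positive day 6, EGFP-negative day 6, wild-type day 6 and sham library. Monocyte markers sum to 2804 CPM in EGFP-positive and 104 CPM in sham, and neutrophil markers to 12636 CPM in EGFP-negative.

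Igf1 was first looked at as the gene that the sort followed. Igf1 (GRCm38 chromosome 10, 87858265 to 87937047) had 813 CPM in EGFP-positive, 49.5 CPM in EGFP-negative, 231 CPM in wild-type day 6 and 2.36 CPM in sham. It was highest in the EGFP-positive library and lowest in sham, 344-fold apart (interval 269 to 448), with a log2 ratio of 7.92. The reporter label and the Igf1 level go the same way, and since the gate chose cells by this gene, its level describes the gate. The RefSeq promoter table (GRCm38.p6) lists a start of Igf1 whose 250 preceding bases, chr10:87860861-87861110 on the plus strand, are shown because they belong to the gene the reporter is named for. The capitals mark the only match in them to the AP-1 motif TGANTCA, which lies 37 bases before that start. No other motif was marked in Igf1. Its bases also hold TTTGAA and ATTGG, letters that are marked in the mitosis genes below, so AP-1 does not set this promoter apart. A match to this motif on either strand, from 250 bases before to 50 after the start, was found in 7.93% of 27025 promoters.
Igf1: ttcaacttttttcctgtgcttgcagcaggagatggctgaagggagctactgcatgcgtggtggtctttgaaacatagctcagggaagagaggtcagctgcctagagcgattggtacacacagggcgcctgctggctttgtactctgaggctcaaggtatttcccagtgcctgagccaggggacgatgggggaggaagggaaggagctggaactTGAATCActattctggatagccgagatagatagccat

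Besides Igf1, Igf2r and Igfbp7 of the insulin-like growth factor axis passed the size rule. Of 15 genes on that list, 7 had at least 20 CPM and could be called. Of these 7, 3 were higher (Igf1, Igf2r and Igfbp7), where 6.52% of all genes considered were, and 0 were lower. Igf2r, which encodes a receptor that takes up insulin-like growth factor 2 and lysosomal enzymes, had 283 CPM in EGFP-positive, 39.3 CPM in EGFP-negative, 64.6 CPM in wild-type day 6 and 4.76 CPM in sham, a fold of 59.4 (interval 49.7 to 71.4). Igfbp7, an extracellular binding protein gene, had 37.2 CPM in EGFP-positive, 40.2 CPM in EGFP-negative, 194 CPM in wild-type day 6 and 6.88 CPM in sham. It was not highest in the EGFP-positive cells. The receptor genes Igf1r (68.1 CPM in EGFP-positive against 110 CPM in sham) and Insr (70.8 CPM in EGFP-positive against 126 CPM in sham) had ratios of -0.68 and -0.82, short of the size rule. Igf2 had 0.77 CPM in EGFP-positive and 18 CPM in sham, below the minimum of 20 CPM, and Igfbp2, Irs1 and Stc1 were listed at 0 counts in EGFP-positive against 4.24 (Igfbp2), 2.47 (Irs1) and 0.64 (Stc1) CPM in sham. Igfbp6 was listed at 0 counts in both.

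Among 25 secreted growth factors, 3 were higher and 2 lower. Hgf, hepatocyte growth factor, had 109 CPM in EGFP-positive, 28.7 CPM in EGFP-negative, 13.8 CPM in wild-type day 6 and 3.58 CPM in sham (ratio 4.59). Pdgfc, a platelet-derived growth factor gene, had 26.8 CPM in EGFP-positive, 3.87 CPM in EGFP-negative, 8.76 CPM in wild-type day 6 and 0.60 CPM in sham (4.12). Both were highest in the EGFP-positive library. The lower genes were Clcf1, a neurotrophic cytokine of the interleukin-6 family, at 0.23 CPM in EGFP-positive against 23 CPM in sham (-4.28), and Pdgfb at 39.8 CPM in EGFP-positive against 254 CPM in sham (-2.64). Gdf15 stood at 17.3 CPM in EGFP-positive against 1.05 CPM in sham, below the minimum, and Bdnf, Gdnf, Areg and Inhba were listed at 0 counts in both libraries. Hbegf was listed at 0 counts in EGFP-positive against 4.10 CPM in sham.

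Most genes of disease-associated microglia were higher in EGFP-positive cells. Of 28, 17 were higher, where 6.52% of all genes considered were, 0 were lower and 26 had a ratio above 0, with a median of 3.16 beside 0.01 over all genes with at least 5 CPM. The list sum was 71411 CPM in EGFP-positive, 20106 CPM in EGFP-negative, 30173 CPM in wild-type day 6 and 10292 CPM in sham. Gpnmb (chromosome 6, 49036518 to 49058182), a membrane glycoprotein of phagocytes with large lysosomes, had the highest ratio of all genes, 11.64. It had 3913 CPM in EGFP-positive, 123 CPM in EGFP-negative, 179 CPM in wild-type day 6 and 0.22 CPM in sham, where only 12 counts were listed. The fold was 17397 with an interval of 7992 to 47407. In the 3 Yy1flox/flox day 6 libraries Gpnmb averaged 325 ± 19.8 CPM (SD, n = 3).

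Spp1 (chromosome 5, 104435111 to 104441053) encodes osteopontin, a secreted matrix protein. It had 7628 CPM in EGFP-positive, 400 CPM in EGFP-negative, 745 CPM in wild-type day 6 and 7.12 CPM in sham, a fold of 1071 (interval 929 to 1241). Apoe (chromosome 7, 19696244 to 19701310), the apolipoprotein of brain lipoproteins, had 18823 CPM in EGFP-positive, 3281 CPM in EGFP-negative, 6183 CPM in wild-type day 6 and 130 CPM in sham, 144-fold above sham (interval 140 to 149). Apoe was the most abundant gene of the EGFP-positive library after Rn45s, and for all 3 of these genes EGFP-positive stood above both other day 6 libraries. Fabp5, a fatty acid carrier, had 271 CPM in EGFP-positive against 0.32 CPM in sham (7.69). Lgals3, a galectin that binds damaged lysosomes, had 330 CPM in EGFP-positive against 0.64 CPM in sham (7.66). Cybb, the catalytic subunit of the phagocyte NADPH oxidase, had 843 CPM in EGFP-positive, 971 CPM in EGFP-negative, 99.5 CPM in wild-type day 6 and 7.12 CPM in sham (6.70). Cybb was thus not highest in EGFP-positive cells, unlike Gpnmb, Spp1 and Igf1. Trem2, the lipid-sensing receptor of this state, had 388 CPM in EGFP-positive and 399 CPM in sham, its adaptor gene Tyrobp had 432 CPM in EGFP-positive and 292 CPM in sham, and the chemokine gene Ccl6 had 55.1 CPM in EGFP-positive and 61.3 CPM in sham. These 3 were chosen after their values were seen, as members that did not pass.

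**Figure D4:**
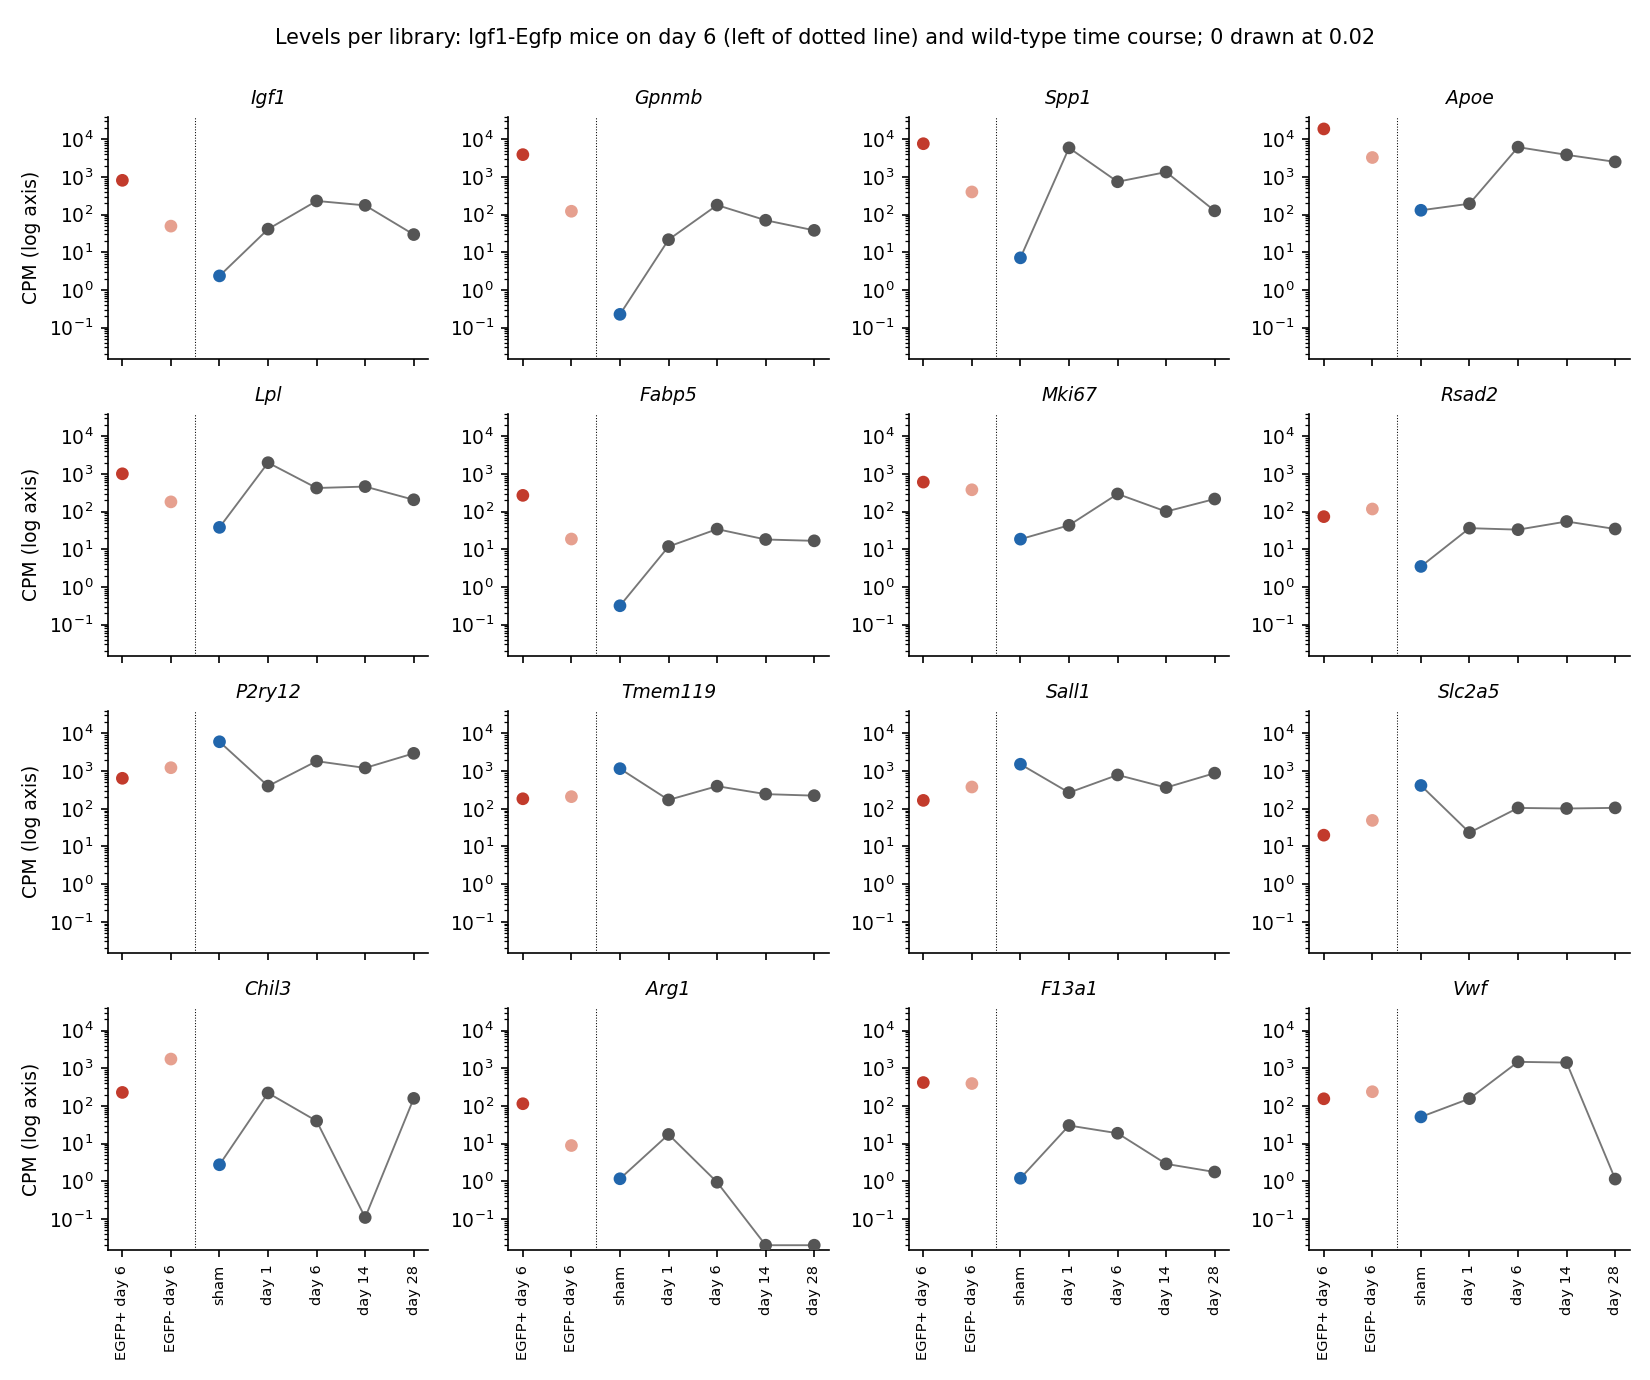
CPM (log axis) of 16 genes in each library, 1 library a point: EGFP-positive and EGFP-negative day 6 left of the dotted line, then the wild-type series of sham, day 1, day 6, day 14 and day 28, joined by a line. Igf1, Gpnmb, Spp1, Apoe and Fabp5 are higher in EGFP-positive than in either other day 6 library, Chil3 is higher in EGFP-negative, and a level of 0 is drawn at 0.02.

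Of 30 genes of lipid uptake, storage and efflux, 11 were higher in EGFP-positive than in sham and none was lower, and the median of the 24 with at least 5 CPM was 2.60. Cd36, which takes up oxidized lipids and fatty acids, had 326 CPM in EGFP-positive, 77.6 CPM in EGFP-negative, 13.3 CPM in wild-type day 6 and 1.05 CPM in sham (7.32). Msr1, the scavenger receptor for modified lipoproteins, had 448 CPM in EGFP-positive, 111 CPM in EGFP-negative, 54.3 CPM in wild-type day 6 and 2.17 CPM in sham (7.14). Plin2, the coat protein of lipid droplets, had 1180 CPM in EGFP-positive, 374 CPM in EGFP-negative, 244 CPM in wild-type day 6 and 15.5 CPM in sham (6.16). All 3 followed the order EGFP-positive, EGFP-negative, wild-type day 6 and sham. They were below 20 CPM in sham, so higher was the only call open to them. Lpl, the lipase that frees fatty acids from lipoproteins, had 1015 CPM in EGFP-positive, 182 CPM in EGFP-negative, 426 CPM in wild-type day 6 and 38.3 CPM in sham (4.69). Apoc1 (4.31), Ch25h, the cholesterol 25-hydroxylase gene (4.08), Pltp (3.06), Lipa (2.94) and Soat1, which esterifies cholesterol for storage (2.25), were higher as well. The efflux transporter genes Abca1 (1.66) and Abcg1 (1.23) and the uptake receptor genes Scarb1 (1.15) and Lrp1 (0.78) did not pass the size rule, and Mylip (-0.56) lay below 0. Of 22 genes of cholesterol synthesis, only 6 had at least 20 CPM and could be called, and 0 of these passed the size rule in either direction. The 15 with at least 5 CPM had ratios from -0.31 to 1.10, with a median of 0.04. Hmgcs1, at the entry of that pathway, had 72 CPM in EGFP-positive against 33.1 CPM in sham (1.10).

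The wider scavenger receptor list had 4 of 12 members higher and 0 lower. Besides Cd36 and Msr1 these were Cd5l, a secreted macrophage glycoprotein, with 87.9 CPM in EGFP-positive, 2.09 CPM in EGFP-negative, 47.2 CPM in wild-type day 6 and 0.47 CPM in sham (5.92), and Colec12 (4.09). Cd5l was nearly absent from the EGFP-negative library. Marco was listed at 0 counts in both EGFP-positive and sham.

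Lysosomal genes were mostly above sham by smaller ratios. Of 35 genes of lysosomal enzymes and membrane proteins, 31 had a ratio above 0, with a median of 1.04, and 5 were higher. Ctsb, a cysteine protease, had 11809 CPM in EGFP-positive, 2670 CPM in EGFP-negative, 4397 CPM in wild-type day 6 and 1297 CPM in sham, a fold of 9.10 (interval 9.0 to 9.21). Cd63, a tetraspanin of late endosomes, had 768 CPM in EGFP-positive, 170 CPM in EGFP-negative, 255 CPM in wild-type day 6 and 87 CPM in sham (3.13), and Lipa, the acid lipase of lysosomes, had 1068 CPM in EGFP-positive, 252 CPM in EGFP-negative, 252 CPM in wild-type day 6 and 138 CPM in sham (2.94). All 3 were lowest in sham and highest in EGFP-positive. Psap, which encodes the activators of sphingolipid breakdown, had 9329 CPM in EGFP-positive against 2295 CPM in sham (2.02), and its ratio was 1.81 with scaling by total counts. The proton pump that acidifies lysosomes had all 16 measured members above 0, with a median of 0.96, and 2 of 17 higher. Atp6v0d2, a subunit of macrophages and osteoclasts, had 25.6 CPM in EGFP-positive, 3.53 CPM in EGFP-negative, 0.96 CPM in wild-type day 6 and 0 counts in sham, and Atp6v1a had 473 CPM in EGFP-positive against 80.5 CPM in sham (2.54).

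Of 14 iron genes, 4 were higher and 1 lower. The ferritin chain genes Ftl1 (2275 CPM in EGFP-positive against 376 CPM in sham, ratio 2.59) and Fth1 (3139 CPM in EGFP-positive against 769 CPM in sham, ratio 2.03), which store iron, were higher, Fth1 with a ratio of 1.81 when scaled by total counts. Steap3 (2.44) and Blvra (2.30) were higher too. Slc40a1, which encodes ferroportin, the iron exporter, was lower at 47.9 CPM in EGFP-positive, 77.4 CPM in EGFP-negative, 118 CPM in wild-type day 6 and 231 CPM in sham (-2.24). The storage genes and the exporter gene thus differed from sham in opposite directions. Of 18 genes of the NADPH oxidase and the antioxidant response, 2 were higher, Cybb and the peroxiredoxin gene Prdx1 (354 CPM in EGFP-positive against 50.2 CPM in sham, ratio 2.79), and Hmox1, heme oxygenase, had 241 CPM in EGFP-positive against 61.2 CPM in sham (1.96).

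Receptors that sense lipids, glycans and dying cells differed by family. Of 16 receptors that signal through ITAM adaptors or oppose them, 6 were higher and 0 lower, with a median of 2.91. Siglec1, a sialic acid receptor of macrophages, had 204 CPM in EGFP-positive, 52.5 CPM in EGFP-negative, 61.7 CPM in wild-type day 6 and 1.74 CPM in sham (6.22). Clec4d (5.09), Cd300lf (5.05), the inhibitory receptor gene Lilrb4a (4.75), Clec7a, which encodes the beta-glucan receptor dectin-1 (4.36), and Pirb were higher as well. Lilrb4a had 506 CPM in EGFP-positive, 639 CPM in EGFP-negative, 243 CPM in wild-type day 6 and 17.8 CPM in sham, so it was not highest in EGFP-positive. Of 14 genes for the uptake of apoptotic cells, only Axl was higher, with 333 CPM in EGFP-positive, 298 CPM in EGFP-negative, 210 CPM in wild-type day 6 and 10.7 CPM in sham (4.83). The related receptor gene Mertk had 476 CPM in EGFP-positive against 994 CPM in sham (-1.06), and their ligand gene Gas6 had 265 CPM in EGFP-positive against 117 CPM in sham (1.17).

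Toll-like receptors differed from sham in both directions. Tlr8, an endosomal sensor of RNA, had 267 CPM in EGFP-positive, 96.7 CPM in EGFP-negative, 15.5 CPM in wild-type day 6 and 0.04 CPM in sham, where 2 counts were listed. Tlr5, the receptor for bacterial flagellin, had 0 counts in EGFP-positive, 9.54 CPM in EGFP-negative, 5.25 CPM in wild-type day 6 and 51.9 CPM in sham (-5.72). Tlr9, a sensor of DNA, had 74 CPM in EGFP-positive against 303 CPM in sham (-2.02), and its ratio was -1.98 with size factors by relative log expression (RLE). Those were the 3 called genes of 13, with a list median of -0.67. Among 6 Fc receptors, Fcgr4 was higher (50.8 CPM in EGFP-positive against 11 CPM in sham, ratio 2.11, or 1.90 with scaling by total counts). Among 16 complement genes, Cfp, the properdin gene (4.47), C3 (3.74) and C4b (2.98) were higher, and none of the 3 was highest in EGFP-positive. In EGFP-positive they stood at 29.8 CPM (Cfp), 54.4 CPM (C3) and 46.5 CPM (C4b), and in EGFP-negative at 66.1 CPM (Cfp), 244 CPM (C3) and 75.3 CPM (C4b).

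Genes of homeostatic microglia were below sham without exception. All 23 had a ratio under 0, 12 were lower, where 3.85% of all genes considered were, and the median was -2.06. Their sum was 13672 CPM in EGFP-positive, 15595 CPM in EGFP-negative, 26994 CPM in wild-type day 6 and 50885 CPM in sham. P2ry12 (chromosome 3, 59216271 to 59262985), the receptor by which microglia sense extracellular nucleotides, had 645 CPM in EGFP-positive, 1233 CPM in EGFP-negative, 1839 CPM in wild-type day 6 and 6022 CPM in sham, a level 9.33-fold higher in sham (interval 9.13 to 9.54). Tmem119, a membrane protein used as a microglial marker, had 185 CPM in EGFP-positive, 210 CPM in EGFP-negative, 398 CPM in wild-type day 6 and 1163 CPM in sham (-2.65). Siglech, a lectin of microglia, had 96.8 CPM in EGFP-positive, 358 CPM in EGFP-negative, 490 CPM in wild-type day 6 and 1275 CPM in sham (-3.71). For all 3 the EGFP-positive library was the lowest of the 4, with EGFP-negative close to it for Tmem119. Slc2a5, the fructose transporter of microglia, had 19.9 CPM in EGFP-positive, 49.2 CPM in EGFP-negative, 105 CPM in wild-type day 6 and 416 CPM in sham (-4.32). Upk1b (-5.15), Crybb1 (-3.72) and Selplg, the P-selectin ligand gene (-3.24), were lower as well, and Cx3cr1, the fractalkine receptor gene, had 1338 CPM in EGFP-positive against 5027 CPM in sham (-1.91), short of the size rule.

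Factors of microglial identity moved unevenly. Of 22 transcription factors of microglia and macrophages, 2 were lower and 1 higher, with a median of -0.54. Sall1 (chromosome 8), which maintains microglial identity, had 167 CPM in EGFP-positive, 379 CPM in EGFP-negative, 791 CPM in wild-type day 6 and 1523 CPM in sham (-3.18), and its relative Sall3 had 41.9 CPM in EGFP-positive, 80.3 CPM in EGFP-negative, 131 CPM in wild-type day 6 and 249 CPM in sham (-2.54). Bhlhe40, which is known from macrophages as a repressor of interleukin-10, had 93.8 CPM in EGFP-positive, 232 CPM in EGFP-negative, 83.8 CPM in wild-type day 6 and 6.2 CPM in sham (3.72). It was highest in EGFP-negative. Yy1, a chromatin looping factor, had 87 CPM in EGFP-positive and 87.4 CPM in sham, and the zinc finger gene Zfp384 had 74.3 CPM in EGFP-positive and 129 CPM in sham (-0.78). In the TGF-beta pathway, which sustains homeostatic genes, Smad3 was lower at 30.8 CPM in EGFP-positive, 90.4 CPM in EGFP-negative, 113 CPM in wild-type day 6 and 265 CPM in sham (-3.06), the 1 called gene of 15. Smad7 (-1.89) and Tgfbr1 (-1.70) stood short of the size rule.

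Of 13 purinergic genes, 4 were lower and 0 higher. Beside P2ry12 these were P2ry13 (191 CPM in EGFP-positive against 1508 CPM in sham, ratio -2.98), Entpd1, the ectonucleotidase CD39 that breaks down extracellular ATP (228 CPM in EGFP-positive against 1063 CPM in sham, ratio -2.22), and the adenosine receptor gene Adora3 (8.73 CPM in EGFP-positive against 43.1 CPM in sham, ratio -2.18). Not all receptor genes for nucleotides went this way. P2ry14 (6.34 CPM in EGFP-positive against 0.30 CPM in sham, ratio 2.50) and P2ry2 (9.35 CPM in EGFP-positive against 1.54 CPM in sham, ratio 2.03) had ratios above 2 at levels below the minimum. P2rx4, a channel gated by ATP, had 130 CPM in EGFP-positive against 40.6 CPM in sham (1.66).

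The lowest ratios of all genes went beyond the homeostatic list. Bank1, a scaffold protein best known from B cells, had 0.23 CPM in EGFP-positive, 7.62 CPM in EGFP-negative, 17.8 CPM in wild-type day 6 and 83.8 CPM in sham (-6.10). Prkca, protein kinase C alpha, had 1.89 CPM in EGFP-positive, 13.3 CPM in EGFP-negative, 37.1 CPM in wild-type day 6 and 132 CPM in sham (-5.53), a level 69.9-fold higher in sham (interval 47.1 to 109). Gpr165, an orphan receptor gene, had 9.04 CPM in EGFP-positive, 4.97 CPM in EGFP-negative, 25 CPM in wild-type day 6 and 278 CPM in sham (-4.79). Each of these was lower in all 3 day 6 libraries than in sham, and Bank1 and Prkca were lowest in EGFP-positive. The other genes among the 20 lowest were Tlr5, Zfp862-ps, Upk1b, Lrig3, Klhdc8b, Nova1, Chst7, Slco4a1, Casc4, Gm13293, Asb2, Fam219b, Hdac11, Slc2a5, Tubb2b, Clcf1 and 4930481A15Rik, with ratios from -5.72 to -4.26. Lrig3, Gm13293 and Hdac11 had 0 counts in EGFP-positive, as did Tlr5.

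Among the other genes with the highest ratios, Pla2g7, which encodes an enzyme that inactivates platelet-activating factor, had 499 CPM in EGFP-positive, 215 CPM in EGFP-negative, 20.1 CPM in wild-type day 6 and 0.43 CPM in sham (8.45). F13a1, the coagulation factor XIII subunit of macrophages, had 416 CPM in EGFP-positive, 392 CPM in EGFP-negative, 18.8 CPM in wild-type day 6 and 1.20 CPM in sham (7.57). Ms4a7, a macrophage membrane gene, had 144 CPM in EGFP-positive, 16.8 CPM in EGFP-negative, 12.1 CPM in wild-type day 6 and 0 counts in sham. Ms4a7 thus set EGFP-positive apart from EGFP-negative, while F13a1 was alike in both and low in wild-type day 6. Cd38, an enzyme that consumes NAD, had 242 CPM in EGFP-positive, 40.1 CPM in EGFP-negative, 39.6 CPM in wild-type day 6 and 1.35 CPM in sham (6.69). Cd44, the hyaluronan receptor, had 360 CPM in EGFP-positive, 569 CPM in EGFP-negative, 48.6 CPM in wild-type day 6 and 2.55 CPM in sham (6.67), and Cxcr4, a chemokine receptor, had 293 CPM in EGFP-positive, 256 CPM in EGFP-negative, 21.2 CPM in wild-type day 6 and 2.21 CPM in sham (6.52). Cd44, Cxcr4 and F13a1 were high in both Igf1-Egfp libraries and far lower in wild-type day 6. Wfdc17 (6.55), Emilin2 (6.52), AI607873 (6.38) and Clec12a (6.36) completed the 20 highest.

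**Figure D5:**
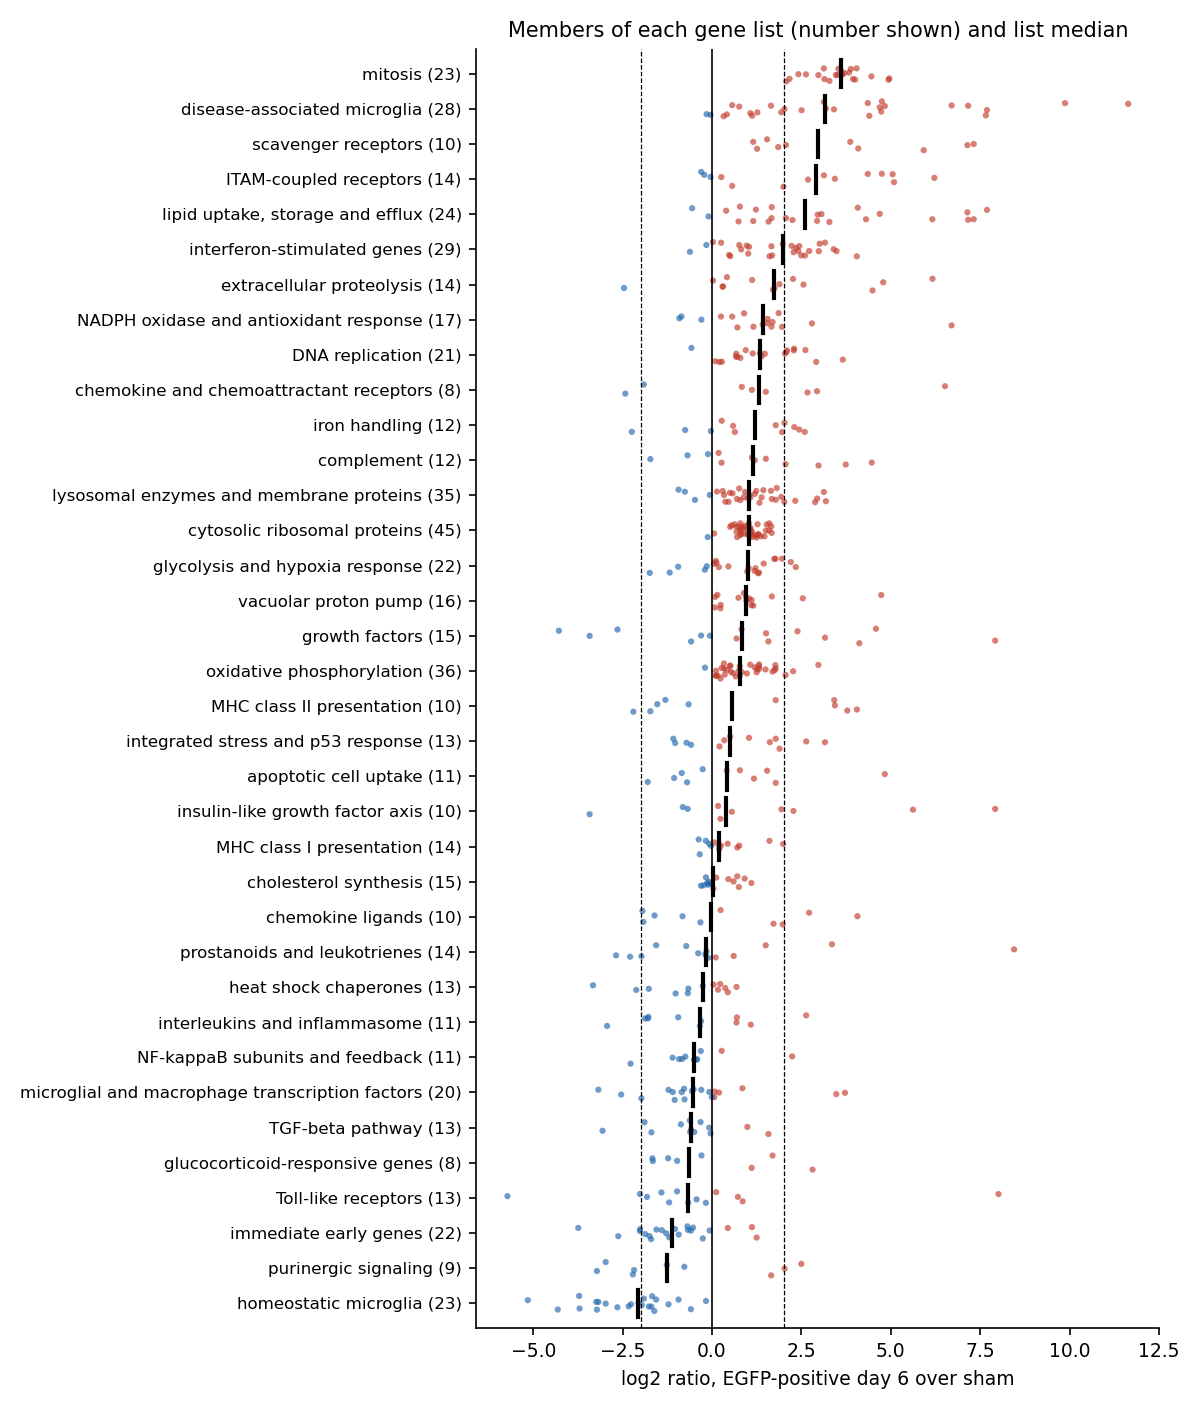
Log2 ratio of EGFP-positive day 6 over sham (horizontal axis) for the members of each gene list with at least 5 CPM, whose number follows the list's name. Red and blue points lie above and below 0, black bars are list medians and dashed lines mark a log2 ratio of 2 either way. Among the lists drawn, which leave out the cell type markers and lists with few such members, mitosis genes have the highest median (3.62) and homeostatic microglia genes the lowest (-2.06).

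Mitosis genes were higher as a body. Of 25, 23 had at least 5 CPM and all 23 had a ratio above 2, 14 had at least 20 CPM and all 14 were higher, and the median was 3.62. The list summed to only 65.2 CPM in sham, so most members reached these minimums through their EGFP-positive level. That all 14 were higher follows in part from this. With scaling by total counts 10 were higher. Their sum was 1402 CPM in EGFP-positive, 909 CPM in EGFP-negative, 779 CPM in wild-type day 6 and 65.2 CPM in sham. Mki67, which encodes the proliferation antigen Ki-67, had 611 CPM in EGFP-positive, 382 CPM in EGFP-negative, 296 CPM in wild-type day 6 and 18.7 CPM in sham (4.96), 32.7-fold above sham (interval 29.9 to 35.9). Top2a, the topoisomerase that untangles chromosomes, had 150 CPM in EGFP-positive, 118 CPM in EGFP-negative, 79.5 CPM in wild-type day 6 and 3.94 CPM in sham (4.94). Bub1, a spindle checkpoint kinase, had 27.6 CPM in EGFP-positive, 13.6 CPM in EGFP-negative, 10.5 CPM in wild-type day 6 and 0.30 CPM in sham (4.46). The order of the libraries was the same for these 3 genes, with EGFP-positive first and sham far below the other libraries. Of 24 DNA replication genes, 4 were higher (Uhrf1, Pola1, Mcm6 and Mcm5), 20 of 21 with at least 5 CPM had a ratio above 0 and the median was 1.34. Uhrf1, which carries DNA methylation through replication, had 21.8 CPM in EGFP-positive against 0.81 CPM in sham (3.66), and Mcm5 had a ratio of 2.04, or 1.84 with scaling by total counts.

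Promoters of genes that move with the cell cycle are known to carry CCAAT boxes, bound by NF-Y, and the cell cycle homology region (CHR), bound by the DREAM complex. The RefSeq promoter table (GRCm38.p6) held 20 of the 25 mitosis genes. Within 250 bases before to 50 after the start, on either strand, CCAAT was found in 18 of them (90%) and TTTGAA, the common form of the CHR, in 15 (75%). Among all 27025 promoters the shares were 37.9% and 18.1%, and among the 5884 considered genes that have a listed promoter they were 37.9% and 11.5%. The 250 bases before the listed start are shown for Mki67 (chr7:135716380-135716629, minus strand) and Top2a (chr11:99024190-99024439, minus strand), the mitosis genes with the highest ratios, each 5′ to 3′ with matches to either motif on either strand in capitals. In Mki67 there are 3 CCAAT and 2 CHR matches, and in Top2a 6 CCAAT and 2 CHR matches. The RefSeq start of Mki67 lies 18 bases before the start of its GENCODE transcript, so the bases just after it were not found there, while those of Top2a were. These matches are a description of the letters and not of binding.
Mki67: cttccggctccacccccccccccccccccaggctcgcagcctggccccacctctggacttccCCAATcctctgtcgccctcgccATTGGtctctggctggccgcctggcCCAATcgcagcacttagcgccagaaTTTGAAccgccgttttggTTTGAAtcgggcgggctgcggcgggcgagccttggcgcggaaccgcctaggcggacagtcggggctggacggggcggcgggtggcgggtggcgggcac
Top2a: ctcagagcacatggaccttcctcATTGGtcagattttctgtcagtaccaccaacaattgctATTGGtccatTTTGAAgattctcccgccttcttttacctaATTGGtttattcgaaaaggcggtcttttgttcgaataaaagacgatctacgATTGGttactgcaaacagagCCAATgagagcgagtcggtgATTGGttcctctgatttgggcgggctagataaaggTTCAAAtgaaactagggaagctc

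Interferon-stimulated genes were higher in part. Of 30, 11 were higher and 0 lower, 27 of 29 with at least 5 CPM had a ratio above 0 and the median was 1.98. With a pseudocount of 5 CPM in place of 1, 7 were higher. The list sum was 1576 CPM in EGFP-positive, 3210 CPM in EGFP-negative, 1961 CPM in wild-type day 6 and 643 CPM in sham. Rsad2, the antiviral enzyme viperin, had 74 CPM in EGFP-positive, 118 CPM in EGFP-negative, 33.4 CPM in wild-type day 6 and 3.52 CPM in sham (4.05). Oas1a, a sensor of double-stranded RNA, had 30.1 CPM in EGFP-positive, 24.9 CPM in EGFP-negative, 17.4 CPM in wild-type day 6 and 1.78 CPM in sham (3.48). Ifi204, a DNA-binding protein of the interferon response, had 137 CPM in EGFP-positive, 243 CPM in EGFP-negative, 133 CPM in wild-type day 6 and 12 CPM in sham (3.40). Except for Oas1a, these genes were highest in the EGFP-negative library and not in the EGFP-positive one. Oasl2 (3.16), Zbp1 (3.01) and Oas2 (2.99) were higher as well. The interferon response motif searched, GAAA, any 2 bases and GAAA again, was found on either strand in 3.49% of all promoters. No share is given for the list, because only 21 of its 30 genes (70%) had a listed promoter. The 250 bases before the listed start are shown for the 2 genes of the list with the highest ratios, Rsad2 (chr12:26456453-26456702, minus strand) and Oas1a (chr5:120907526-120907775, minus strand), with matches on either strand in capitals. Rsad2 has 1 match, 120 bases before the start, and Oas1a has 2 that overlap, 20 and 14 bases before it.
Rsad2: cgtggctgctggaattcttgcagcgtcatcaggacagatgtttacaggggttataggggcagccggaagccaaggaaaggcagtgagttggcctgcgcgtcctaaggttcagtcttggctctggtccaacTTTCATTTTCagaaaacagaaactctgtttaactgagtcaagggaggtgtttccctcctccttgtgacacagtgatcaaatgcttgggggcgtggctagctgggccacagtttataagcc
Oas1a: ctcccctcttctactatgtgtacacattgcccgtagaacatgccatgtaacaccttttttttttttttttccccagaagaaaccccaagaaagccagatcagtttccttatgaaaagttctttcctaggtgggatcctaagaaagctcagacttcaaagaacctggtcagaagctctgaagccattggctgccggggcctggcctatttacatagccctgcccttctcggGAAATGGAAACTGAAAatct

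Of 11 genes of MHC class II presentation, 4 were higher than in sham and 1 was lower, with 5 ratios above 0 and 5 below 0 among those with at least 5 CPM and a median of 0.56. H2-Aa, an MHC class II chain, had 114 CPM in EGFP-positive, 2029 CPM in EGFP-negative, 40.5 CPM in wild-type day 6 and 5.96 CPM in sham (4.05). H2-Eb1 had 57.4 CPM in EGFP-positive, 1114 CPM in EGFP-negative, 16.6 CPM in wild-type day 6 and 3.24 CPM in sham (3.78), Cd74, the invariant chain, had 296 CPM in EGFP-positive, 2886 CPM in EGFP-negative, 78.3 CPM in wild-type day 6 and 26.4 CPM in sham (3.44), and H2-Ab1 was higher as well (3.42). Cd80, a costimulatory ligand, was lower at 3.79 CPM in EGFP-positive against 21 CPM in sham (-2.20). H2-DMa (-1.73) and the costimulatory gene Cd86 (-1.53) had ratios under 0, short of the size rule. H2-DMb1 (-0.66) and H2-Oa (-1.31) had ratios under 0 too, H2-Oa at levels below the minimum of 20 CPM. H2-Aa, H2-Eb1 and Cd74 were far below their levels in the EGFP-negative library. The monocyte markers summed to 2804 CPM in EGFP-positive, 5799 CPM in EGFP-negative and 104 CPM in sham, and their part in these values was not tested. Of 16 class I genes, 0 were called, with Nlrc5, the activator of class I genes, at 39.4 CPM in EGFP-positive against 9.18 CPM in sham (1.99).

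Interleukin and chemokine genes with at least 20 CPM did not pass the size rule, and many members were below that level. Of 17 interleukin and inflammasome genes 9 had at least 20 CPM, and of 20 chemokine genes 6 did. Of these, 0 were called in either direction. List medians over members with at least 5 CPM were -0.34 and -0.04. Il1rn (2.63) and Cxcl2 (2.71) had ratios above 2 at levels below the minimum of 20 CPM. Il1b, the proinflammatory interleukin-1 beta gene, had 2.16 CPM in EGFP-positive, 438 CPM in EGFP-negative, 20.1 CPM in wild-type day 6 and 4.78 CPM in sham. Tnf had 64.1 CPM in EGFP-positive, 130 CPM in EGFP-negative, 86.9 CPM in wild-type day 6 and 29.7 CPM in sham (1.08), and Il1a had 47.9 CPM in EGFP-positive, 115 CPM in EGFP-negative, 135 CPM in wild-type day 6 and 178 CPM in sham (-1.87). Il1b was lowest in EGFP-positive and highest in EGFP-negative. Tnf was also highest in EGFP-negative, but it was lowest in sham. Il6 had 0 counts in EGFP-positive and 6.65 CPM in sham. Of the chemokine genes, Ccl4 had 85.5 CPM in EGFP-positive against 333 CPM in sham (-1.95), Ccl12 had 20.3 CPM in EGFP-positive against 79.6 CPM in sham (-1.92) and Cxcl16 had 173 CPM in EGFP-positive against 43.1 CPM in sham (1.98). Cxcl14 had 15.8 CPM in EGFP-positive, below the minimum, and 0 counts in sham. Among receptors for chemoattractants, Cxcr4, Ccr2 and Ccr1 (2.67) were higher.

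Enzymes and receptors of prostanoids and leukotrienes included 2 higher and 2 lower genes of 17. Pla2g7 and the prostaglandin E receptor gene Ptger4 (86.2 CPM in EGFP-positive against 7.53 CPM in sham, ratio 3.35) were higher. Hpgd, which inactivates prostaglandins, was lower at 61.2 CPM in EGFP-positive, 121 CPM in EGFP-negative, 182 CPM in wild-type day 6 and 399 CPM in sham (-2.69), and Ptgs1, the constitutive cyclooxygenase gene, was lower at 136 CPM in EGFP-positive, 204 CPM in EGFP-negative, 378 CPM in wild-type day 6 and 672 CPM in sham (-2.29). Both were lowest in EGFP-positive and highest in sham.

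Extracellular proteases were higher in 5 of 19 cases and lower in 1. Adam8, a metalloprotease of activated leukocytes, had 217 CPM in EGFP-positive, 131 CPM in EGFP-negative, 24.9 CPM in wild-type day 6 and 2.04 CPM in sham (6.17), and Mmp12, the macrophage elastase, had 57.2 CPM in EGFP-positive, 11.6 CPM in EGFP-negative, 14.1 CPM in wild-type day 6 and 1.59 CPM in sham (4.49). Mmp8 (4.79), also a neutrophil marker, had 63.9 CPM in EGFP-positive, against 368 CPM in EGFP-negative. Mmp14 (2.56) and Adam9 (2.27) were higher, and Mmp2, a gelatinase, was lower at 6.26 CPM in EGFP-positive against 39 CPM in sham (-2.46).

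Immediate early genes, which respond within minutes to stimulation and also to tissue dissociation, were below sham. Of 25, 0 were higher and 3 lower, 19 of 22 with at least 5 CPM had a ratio under 0 and the median was -1.12. Jun, an AP-1 subunit, had 1175 CPM in EGFP-positive, 3097 CPM in EGFP-negative, 3460 CPM in wild-type day 6 and 4762 CPM in sham (-2.02). Jund had 123 CPM in EGFP-positive, 354 CPM in EGFP-negative, 546 CPM in wild-type day 6 and 501 CPM in sham (-2.01), and Btg2, an antiproliferative gene, had 184 CPM in EGFP-positive, 743 CPM in EGFP-negative, 735 CPM in wild-type day 6 and 1140 CPM in sham (-2.62). EGFP-positive was lowest of the 4 for each. The ratios of Jun and Jund were -1.98 with RLE size factors, and Jund was just short of the rule with the sham library thinned. The inducible heat shock genes Hspa1b (27.9 CPM in EGFP-positive, 374 CPM in EGFP-negative, 132 CPM in wild-type day 6 and 290 CPM in sham, ratio -3.33) and Hspa1a (64.6 CPM in EGFP-positive, 450 CPM in EGFP-negative, 164 CPM in wild-type day 6 and 284 CPM in sham, ratio -2.12) were lowest in EGFP-positive as well, the 2 called genes of 13 chaperones. Of 11 NF-kappaB genes, Nfkbie, an inhibitor, was lower (8.35 CPM in EGFP-positive against 44.4 CPM in sham, ratio -2.28), and of 8 glucocorticoid-responsive genes, Klf9 was higher (40.5 CPM in EGFP-positive against 4.91 CPM in sham, ratio 2.81).

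Housekeeping and metabolic groups sat above sham by less than the size rule. Of 45 cytosolic ribosomal protein genes with at least 5 CPM, 44 had a ratio above 0, 0 were called and the median was 1.03, in the library that also had the larger share of Rn45s. Their sum was 9611 CPM in EGFP-positive, 14063 CPM in EGFP-negative, 8253 CPM in wild-type day 6 and 4891 CPM in sham. Of 36 oxidative phosphorylation genes, 35 had a ratio above 0, the median was 0.78 and 3 were higher, Ndufa1 (2.97), Cox5a (2.27) and Uqcrq (2.06, or 1.85 with scaling by total counts). Of 24 genes of glycolysis and the hypoxia response, 2 were higher, Ndrg1 (2.34) and Pkm, pyruvate kinase (721 CPM in EGFP-positive against 156 CPM in sham, ratio 2.20, or 1.99 with scaling by total counts), and the median was 1.00. Hif1a, the hypoxia-inducible factor gene, had 681 CPM in EGFP-positive against 249 CPM in sham (1.45). Of 17 genes of the integrated stress and p53 responses, Psat1, an enzyme of serine synthesis, was higher (146 CPM in EGFP-positive against 22.6 CPM in sham, ratio 2.64). Psat1 had 148 CPM in wild-type day 6, so that EGFP-positive was not above wild-type cells of that day. Members with at least 20 CPM numbered 33 (oxidative phosphorylation), 20 (glycolysis and hypoxia response) and 9 (stress responses). Over all genes considered 6.52% were higher, so these few calls are not read as a result about the 3 lists.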

How the data were processed

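Gene expression was measured by RNA-seq of sorted microglia. Whole-number read counts per gene were deposited by the authors for 24421 genes without normalization. The Yy1flox/flox day 6 table holds expected counts, deposited by the authors with some fractions, and was rounded to whole numbers. The submitters' processing notes name STAR, featureCounts, edgeR, mm10 and GRCm38, with no versions or roles, and the annotation and strand setting are not given in the sources used here. A date in place of a gene name was carried by 27 genes, kept in totals and not named. A further 5 columns, of the day 14 EGFP and Yy1-deleted libraries, were not used.

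Counts were scaled to CPM by TMM over the 7 libraries with edgeR 4.0.16 in R 4.3.3, and handled in Python 3.11.15. Genes were called by the size rule with a pseudocount of 1 CPM. Members under 5 CPM in both libraries were left out of the median of a list. Named were the 20 highest and 20 lowest ratios, the 10 most abundant genes of each library, up to 6 members per list by size of ratio and 12 genes of interest. The comparison and its 49 lists were chosen with earlier results of these data known. A list gene not in the table was Ly6g. Values of some genes are not reported here. On simulated data with 200 changed genes (log2 3) of 24394, 98.5% were recovered with 0 false calls. How many calls are false in the EGFP-positive and sham libraries was not tested. Between Yy1flox/flox day 6 replicates, 6 to 19 genes passed the same size rule. Promoters and gene coordinates came from RefSeq tables of GRCm38.p6. Alternatives were RLE and total-count scaling, TMM from 2 libraries, other pseudocounts, minimums and thresholds, a thinned sham library and, chosen after seeing the data, totals without Rn45s and counts without other white blood cell markers.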

Additional observations from a re-analysis of the deposited data

How the results depend on the processing

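The number of called genes depended on the minimum level and the threshold. With a minimum of 5 CPM, 790 genes were higher and 560 lower. With a minimum of 50 CPM these were 284 and 180, and with no minimum 880 and 697. An absolute log2 ratio of 1 gave 1246 and 1047, and one of 3 gave 267 and 80. RLE size factors gave 483 and 261, TMM from the 2 libraries alone 449 and 285, a thinned sham library 480 and 273, and totals without Rn45s 473 and 326. Interferon-stimulated genes had 7 members higher with a pseudocount of 5 CPM. Of the 165 named called genes, between 142 (pseudocount of 5 CPM) and 165 (0.25 CPM) stayed past the size rule over the 7 settings of scaling, pseudocount and depth, and 0 changed sign. Psap, Fth1 and S100a8 were short of the rule with TMM from the 2 libraries alone and without Rn45s as well as with total counts, at ratios of 1.96 to 2.00 in those first 2 settings. The list median of lymphocyte markers was -0.053 over all 9 members with a count, against 1.87 over the 2 with at least 5 CPM, the members being different by construction. No paired analysis was possible because each group has 1 library. Depth limits low genes most: folds against sham genes with few counts have wide intervals.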

Other observations

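The most abundant genes of the 2 libraries overlapped in part. Of the 10 most abundant in EGFP-positive, Ctsd, the aspartic protease of lysosomes, had 16009 CPM in EGFP-positive against 5106 CPM in sham (log2 ratio 1.65). Mpeg1, which encodes the pore-forming perforin-2 of macrophages, had 7135 CPM in EGFP-positive against 2030 CPM in sham (1.81), and Actb, cytoskeletal actin, had 9790 CPM in EGFP-positive against 5144 CPM in sham (0.93). The elongation factor gene Eef1a1 had 5108 CPM in EGFP-positive against 2293 CPM in sham (1.16). None of these passed the size rule, and all 4 were above sham. Malat1, a nuclear long noncoding RNA, had 14800 CPM in EGFP-positive and 18316 CPM in sham (-0.31). Csf1r, the most abundant gene of sham after Rn45s and Malat1, had 2076 CPM in EGFP-positive against 8649 CPM in sham (-2.06).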
